A study of Mus musculus with 6 samples.

Results

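Hepatic counts of Impdh1, Nudt2, Npr2 and Gucy1a2 were compared in antibiotic-treated (ABX) C57BL/6 mice under a normal light-dark cycle (NLD) and under short day (SD). The paper reports from gene set enrichment analysis that SD affected purine metabolism in the liver. That is a test of the pathway as a set, which was not run here. The question here was what these members of that pathway did. They are the 4 genes chosen of the 55357 rows of the count table, by symbol, because their place on chromosome 4, 6 or 9 agrees between the mouse genome builds GRCm38 and GRCm39. No measured value was used to choose them, but earlier results of these data were known. Each group held 3 mice, with 1 liver library per mouse, under 12 h of light and 12 h of dark for NLD and 8 h of light and 16 h of dark for SD. All 6 mice received the antibiotic cocktail, which perturbs the gut microbiota, so no mouse with an intact microbiota is in the comparison. The strain is given as the labels write it, and the paper's methods name the substrain C57BL/6N. The labels give Day 28 for every sample, and the paper's methods describe a longer trial, mice housed singly, fasting before sampling and collection in the same hours of the morning. Neither the age nor the sex of the mice was found in the labels or methods. The libraries held between 5497797 and 6932965 counts, and all levels below are CPM, library-size scaled counts after TMM normalization.

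Purine nucleotides are built as IMP, which is then turned into AMP or GMP, and part of the GTP and ATP made from these is cyclised into the messengers cyclic GMP and cyclic AMP. Impdh1 encodes an IMP dehydrogenase, the rate-limiting step from IMP towards GMP, and Nudt2 encodes the hydrolase that cleaves the dinucleotide Ap4A (diadenosine tetraphosphate) into ATP and AMP. Npr2 encodes the membrane guanylate cyclase that is the receptor of C-type natriuretic peptide and is best known for its role in bone growth. Gucy1a2 encodes an alpha subunit of soluble guanylate cyclase, the receptor of nitric oxide, which works as a pair with a beta subunit. Cyclic GMP acts through protein kinases and ion channels and is broken down by phosphodiesterases.

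The positions were checked with letters as well as with annotation, because the labels name GRCm38 and the paper's methods name GRCm39. For each gene, RefSeq's promoter window on GRCm38.p6 was searched in the GRCm39 chromosome, and each was found there once. A window runs from 250 bases before to 50 after an annotated start, 300 in all. The windows of Nudt2 (chr4:41464898-41465197, + strand), Npr2 (chr4:43631685-43631984, + strand) and Gucy1a2 (chr9:3532099-3532398, + strand) had moved by 0 bases. That of Impdh1 (chr6:29216315-29216614, - strand, the first of a pair of windows for this gene) had moved by -1 base. Of 141 genes of the purine, cyclic GMP and diadenosine lists described below whose window was found, 6 had moved by at most 10 bases, namely these 4, Hint2 and Aptx. The other 135 had moved by a median of 124.1 kb. The windows are shown because they check, letter by letter, the positions for which the genes were chosen. They are written 5′ to 3′ on the strand of the gene, and capitals mark GC boxes, CCAAT boxes and E-boxes on either strand.
Impdh1: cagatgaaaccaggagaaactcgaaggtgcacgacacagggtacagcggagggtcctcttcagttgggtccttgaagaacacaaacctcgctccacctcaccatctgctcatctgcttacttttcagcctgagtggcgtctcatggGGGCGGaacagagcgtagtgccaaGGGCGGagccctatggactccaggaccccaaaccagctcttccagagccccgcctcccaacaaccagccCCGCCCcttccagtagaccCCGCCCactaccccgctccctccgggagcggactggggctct
Nudt2: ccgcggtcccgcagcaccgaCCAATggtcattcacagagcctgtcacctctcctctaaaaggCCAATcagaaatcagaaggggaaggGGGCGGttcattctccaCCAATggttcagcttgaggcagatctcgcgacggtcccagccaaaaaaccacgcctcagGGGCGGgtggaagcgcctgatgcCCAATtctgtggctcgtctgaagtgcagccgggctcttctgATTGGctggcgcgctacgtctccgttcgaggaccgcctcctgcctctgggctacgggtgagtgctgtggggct
Npr2: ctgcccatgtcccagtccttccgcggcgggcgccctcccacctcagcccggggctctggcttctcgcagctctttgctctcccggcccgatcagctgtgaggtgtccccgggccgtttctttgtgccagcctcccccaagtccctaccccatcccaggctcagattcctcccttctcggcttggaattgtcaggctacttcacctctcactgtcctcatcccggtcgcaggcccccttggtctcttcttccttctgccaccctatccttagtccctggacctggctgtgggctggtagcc
Gucy1a2: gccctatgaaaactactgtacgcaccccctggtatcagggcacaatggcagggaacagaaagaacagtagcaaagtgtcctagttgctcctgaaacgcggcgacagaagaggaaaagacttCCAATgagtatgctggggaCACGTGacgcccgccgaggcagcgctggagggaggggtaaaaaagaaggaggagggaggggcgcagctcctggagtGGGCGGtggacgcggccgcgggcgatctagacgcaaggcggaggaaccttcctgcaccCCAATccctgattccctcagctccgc

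The motifs were searched as exact letters on both strands, with the CCAAT box as its name spells it. The letters of the GC box, to which the general activator SP1 can bind, were GGGCGG. The Impdh1 window held 4 GC boxes and no CCAAT box, and the Nudt2 window held 2 GC boxes and 5 CCAAT boxes. The Gucy1a2 window held 1 GC box, 2 CCAAT boxes and 1 E-box, whose letters were CACGTG and to which clock proteins such as CLOCK and BMAL1 can bind. None of these 3 motifs was in the Npr2 window. That window lies inside the gene as annotated in GRCm39, which starts at 43631339, so the letters before that start were not searched. No window of the 4 genes held the TATA box letters TATAAA, which 13.6% of all windows held. The cyclic AMP response element (TGACGTCA, in 1.79% of all windows) was in none of them, nor was the D-box (TTATGTAA, in 0.938%). Over all 32851 windows of the RefSeq table, 35.7% held a GC box, 37.4% a CCAAT box and 7.15% an E-box. The number of CpG was 14 for Impdh1, 20 for Nudt2, 13 for Npr2 and 19 for Gucy1a2. Between 62.1% and 73.5% of all windows held fewer. The second window of Impdh1 (chr6:29212248-29212547, - strand) held 28 CpG, more than 85.8% of all windows, and 3 GC boxes, and it had moved by -1 base too. These matches are a description of letters, and binding was not measured.

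For none of the 4 genes did the difference between SD and NLD pass the test. At an adjusted p under 0.05 from edgeR's quasi-likelihood test, 0 of 4 were called, against 0.289% of the 7261 rows tested. None had an unadjusted p under 0.05, which 8.48% of all rows had, and DESeq2 called none of them at an adjusted p under 0.05, against 1.89% of all rows. In none were the libraries of the groups apart, against 17.0% of all rows. Among the 347 tested protein-coding rows whose position is shared by the builds, 0.288% (1 row, Rusc2) were called, 13.5% had an unadjusted p under 0.05 (7.78% higher and 5.76% lower) and 22.2% had groups apart (13.5% higher and 8.65% lower). All 4 genes passed the filter on low counts. For a single gene, the smallest p that the exact permutation test allows with 3 against 3 mice is 0.10. In bulk liver, fewer cells of a type and less RNA per cell cannot be told apart.

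**Figure D1:**
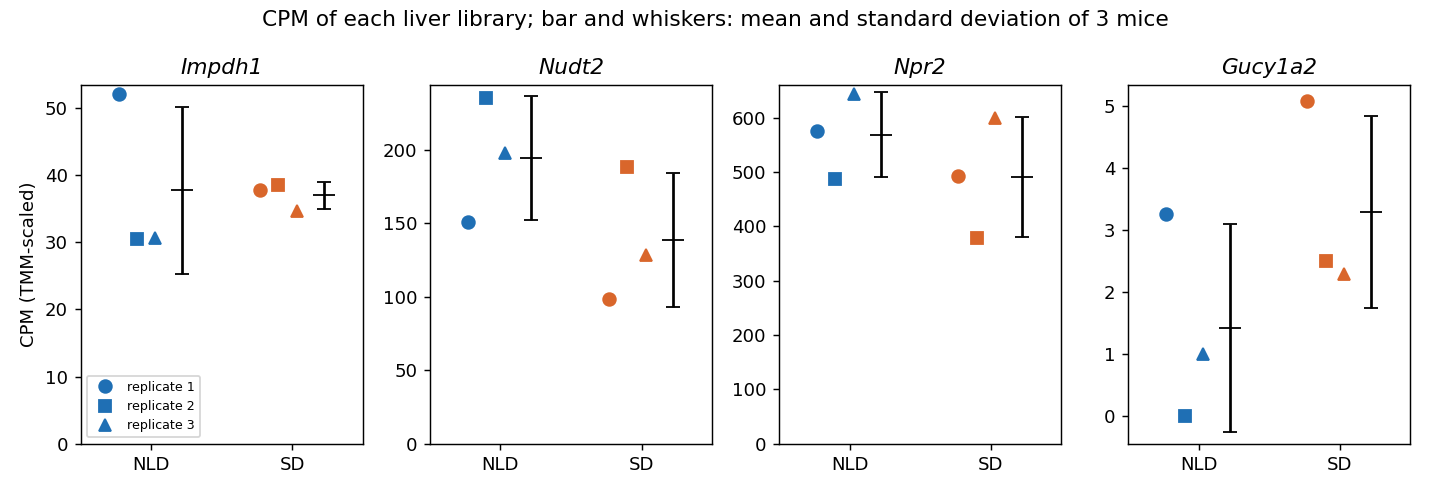
CPM of Impdh1, Nudt2, Npr2 and Gucy1a2 (y axis, starting at or just below 0) in each NLD and SD library, with the replicate given by the shape of the point and the mean and standard deviation of 3 mice beside the points. The groups overlap in all 4 panels, and the widest spread within a group relative to its mean is that of Gucy1a2 under NLD, from 0 to 3.27 CPM.

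Impdh1 lies on chromosome 6 of GRCm39 from 29200429 to 29216363 on the - strand. It had counts of 303, 182 and 185 in NLD replicates 1 to 3 and 223, 262 and 227 in SD replicates 1 to 3. In CPM these were 52.1, 30.4 and 30.7 in NLD replicates 1 to 3 and 37.8, 38.5 and 34.7 in SD replicates 1 to 3. The SD libraries lay close together between the NLD values, with NLD replicate 1 above and NLD replicates 2 and 3 below all of them. The mean and standard deviation of the 3 NLD mice were 37.7 ± 12.4 CPM and those of the 3 SD mice 37.0 ± 2.02 CPM (n = 3 in each group). The log2 fold change was -0.030 (standard error 0.25, adjusted p = 0.981 from edgeR), and its 95% interval spanned 0.643-fold to 1.49-fold. The direction turned without NLD replicate 1, without SD replicate 3 (0.014) and with the replicate block (0.017). Without NLD replicate 1, Impdh1 had a log2 fold change of 0.27 (adjusted p = 0.480 from edgeR), and over the alternatives the adjusted p lay between 0.480 and 0.9999. The exact permutation p was 1 (two-sided).

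Nudt2 lies on chromosome 4 of GRCm39 from 41465060 to 41485231 on the + strand. It had counts of 878, 1406 and 1194 in NLD replicates 1 to 3 and 582, 1283 and 842 in SD replicates 1 to 3. In CPM these were 151, 235 and 198 in NLD replicates 1 to 3 and 98.5, 188 and 129 in SD replicates 1 to 3. The lowest pair of libraries were both SD and the highest pair both NLD, but SD replicate 2 lay above NLD replicate 1, so the groups overlapped. The mean and standard deviation of the 3 NLD mice were 195 ± 42.2 CPM and those of the 3 SD mice 138 ± 45.7 CPM (n = 3 in each group), a ratio of 0.711. The log2 fold change was -0.49 (standard error 0.28, adjusted p = 0.651 from edgeR), with a 95% interval from 0.448-fold to 1.13-fold. It was below 0 under every alternative, from -0.79 without SD replicate 2 (unadjusted p = 0.0231 from edgeR) to -0.29 without SD replicate 1, and the adjusted p lay between 0.381 and 0.965. The exact permutation p was 0.20 (two-sided).

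Npr2 lies on chromosome 4 of GRCm39 from 43631339 to 43651436 on the + strand. It had counts of 3352, 2918 and 3880 in NLD replicates 1 to 3 and 2911, 2582 and 3930 in SD replicates 1 to 3. In CPM these were 576, 488 and 643 in NLD replicates 1 to 3 and 493, 379 and 600.1 in SD replicates 1 to 3. The lowest library was SD replicate 2 and the highest NLD replicate 3, and SD replicate 3 lay above NLD replicates 1 and 2. The mean and standard deviation of the 3 NLD mice were 569 ± 77.9 CPM and those of the 3 SD mice 491 ± 110.5 CPM (n = 3 in each group). The log2 fold change was -0.21 (standard error 0.20, adjusted p = 0.785 from edgeR), with a 95% interval from 0.617-fold to 1.21-fold. Under the alternatives it lay between -0.39 and -0.069, with an adjusted p between 0.542 and 0.9999, and the exact permutation p was 0.50 (two-sided). Exons of Gm12473, a long noncoding RNA on the other strand, overlap those of Npr2, and its row held 1110 counts over the 6 libraries against 19573 for Npr2. Spag8 (103 counts) and the miRNA gene Gm56257 (125 counts) overlap its exons too, while Impdh1 and Gucy1a2 overlap only long noncoding RNAs that are not rows of the table. Without a stated strand setting, reads of genes that overlap on opposite strands cannot be told apart. Gm56257 lies on the same strand as Npr2, where such a setting would not separate their reads.

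Gucy1a2 lies on chromosome 9 of GRCm39 from 3532778 to 3905741 on the + strand. It had counts of 19, 0 and 6 in NLD replicates 1 to 3 and 30, 17 and 15 in SD replicates 1 to 3. In CPM these were 3.27, 0 and 0.995 in NLD replicates 1 to 3 and 5.08, 2.50 and 2.29 in SD replicates 1 to 3. NLD replicates 2 and 3 lay below every SD library, while NLD replicate 1 lay above SD replicates 2 and 3. The mean and standard deviation of the 3 NLD mice were 1.42 ± 1.67 CPM and those of the 3 SD mice 3.29 ± 1.55 CPM (n = 3 in each group). The log2 fold change was 1.20 (standard error 1.13, adjusted p = 0.782 from edgeR), with a 95% interval from 0.356-fold to 14.8-fold, and the exact permutation p was 0.30 (two-sided). A count of at least 10 was reached in 1 NLD library and 3 SD libraries, and the interval holds both lower and many times higher levels under SD. The value moved to 2.67 without NLD replicate 1 and to 0.62 without NLD replicate 2, and the adjusted p over the alternatives lay between 0.393 and 0.9999. Gucy1a2 had enough counts for each alternative but the one that asked for 10 counts in every library.

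**Figure D2:**
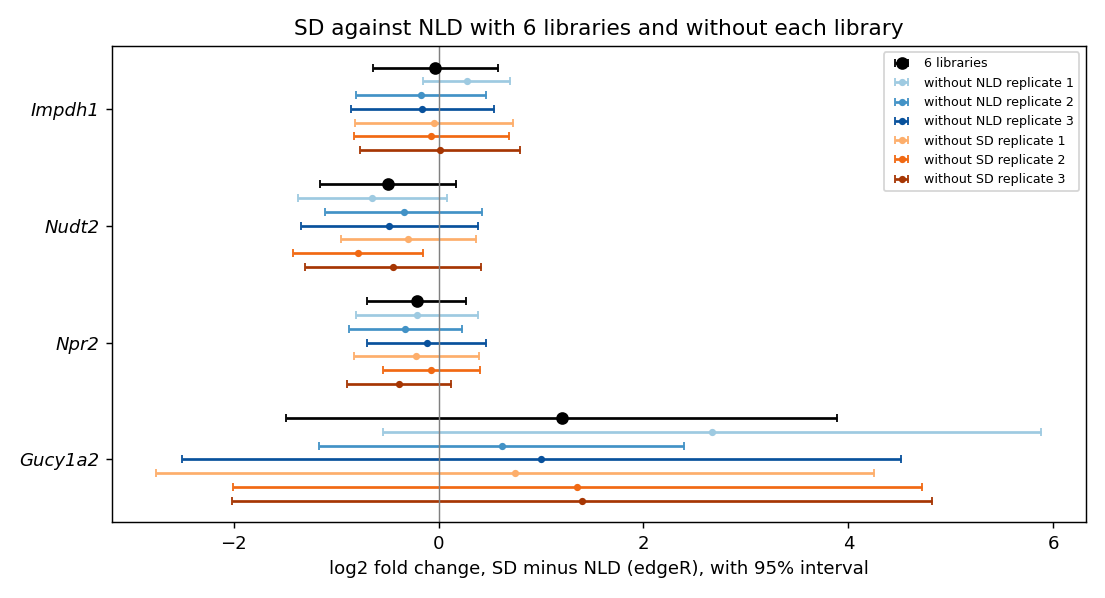
Log2 fold change of SD against NLD from edgeR (x axis) with its 95% interval for the 4 genes, from the 6 libraries (black) and without each library in turn (colours). The interval from the 6 libraries holds 0 for each gene, the point of Impdh1 moves from -0.17 to 0.27 and that of Gucy1a2 from 0.62 to 2.67 when a library is left out, and the interval of Nudt2 lies below 0 without SD replicate 2.

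Levels of different genes were compared per length, as CPM per kb of GRCm39 exon (GENCODE M39, all exons of a gene joined), which may differ from the exons the authors counted. On this scale Npr2 had 53.8 ± 7.37 under NLD and 46.4 ± 10.5 under SD (CPM per kb, standard deviation, n = 3). Nudt2 had 40.2 ± 8.73 and 28.6 ± 9.45 CPM per kb (standard deviation, n = 3). These genes were neighbours in the order whose libraries overlapped, and the ratio of Npr2 to Nudt2 within a library ran from 0.921 to 2.29. Impdh1 had 6.24 ± 2.06 and 6.11 ± 0.335 CPM per kb (standard deviation, n = 3). In each of the 6 libraries it was below Nudt2, which was 3.26 to 9.65 times as high. Gucy1a2 stood at 0.0804 ± 0.0948 and 0.186 ± 0.0880 CPM per kb (standard deviation, n = 3), below Impdh1 in each library. Among the 347 tested rows at the same position, whose median was 24.3 CPM per kb, 65.4% lay below Npr2, 57.1% below Nudt2, 24.8% below Impdh1 and 0% below Gucy1a2. As a share of the mean, the standard deviation of Impdh1 was 32.9% under NLD and 5.48% under SD, where the medians of those 347 rows were 14.9% and 16.0%. For Nudt2 these shares were 21.7% and 33.0%, and for Npr2 13.7% and 22.5%.

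**Figure D3:**
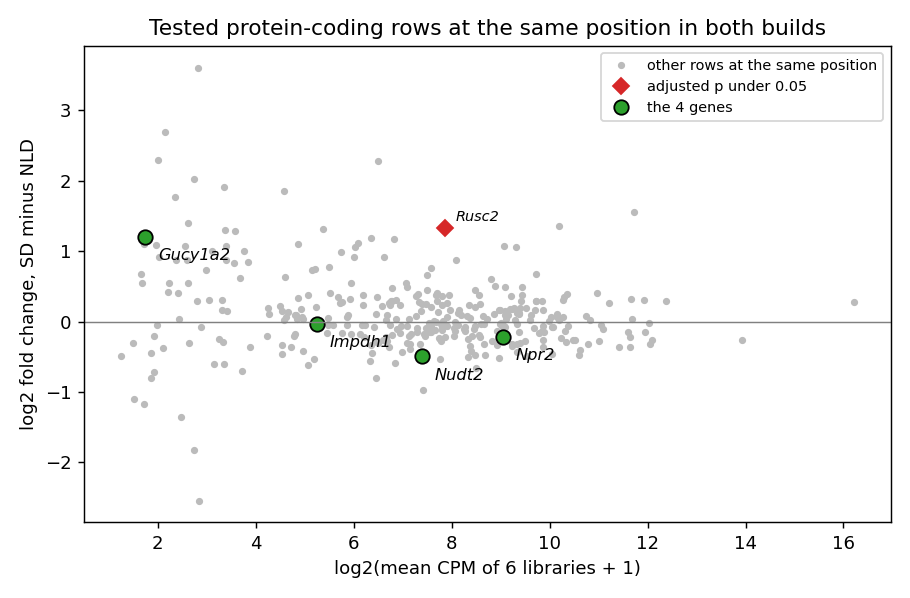
Log2 fold change of SD against NLD (y axis) against log2 of the mean CPM plus 1 (x axis) for the 347 tested protein-coding rows whose position the builds share. Impdh1, Nudt2, Npr2 and Gucy1a2 (green) lie within the cloud of the other rows (grey), Gucy1a2 at its low end, and Rusc2 (red) is the row with an adjusted p under 0.05.

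The 3 rows most like each gene were taken from 318 rows at the same position with at least 5 CPM, by Pearson's r of log2(CPM + 1) over the same 6 libraries, which share their depth and scaling. Nudt2 was most like Zc3hc1 (r = 0.997), Tomm5 (r = 0.992) and Tstd3 (r = 0.992). Tomm5, a subunit of the mitochondrial import channel, had 320.4, 484 and 443 CPM in NLD replicates 1 to 3 and 229, 382 and 283 in SD replicates 1 to 3. Like Nudt2, Tomm5 was lowest in SD replicate 1 and highest in NLD replicate 2, and its adjusted p was 0.629 from edgeR. Gucy1a2 was most like Pm20d2 (r = 0.971), Rnf20 (r = 0.967) and Tnpo3 (r = 0.951). Impdh1 was most like Zfp800 (r = 0.850), Jcad (r = 0.840) and Epc1 (r = 0.837), and Npr2 most like Irf5 (r = 0.849), Hsdl2 (r = 0.778) and Atp6v0d2 (r = 0.778). These values describe 6 libraries of 2 groups, and the rows were picked for a high r.

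**Figure D4:**
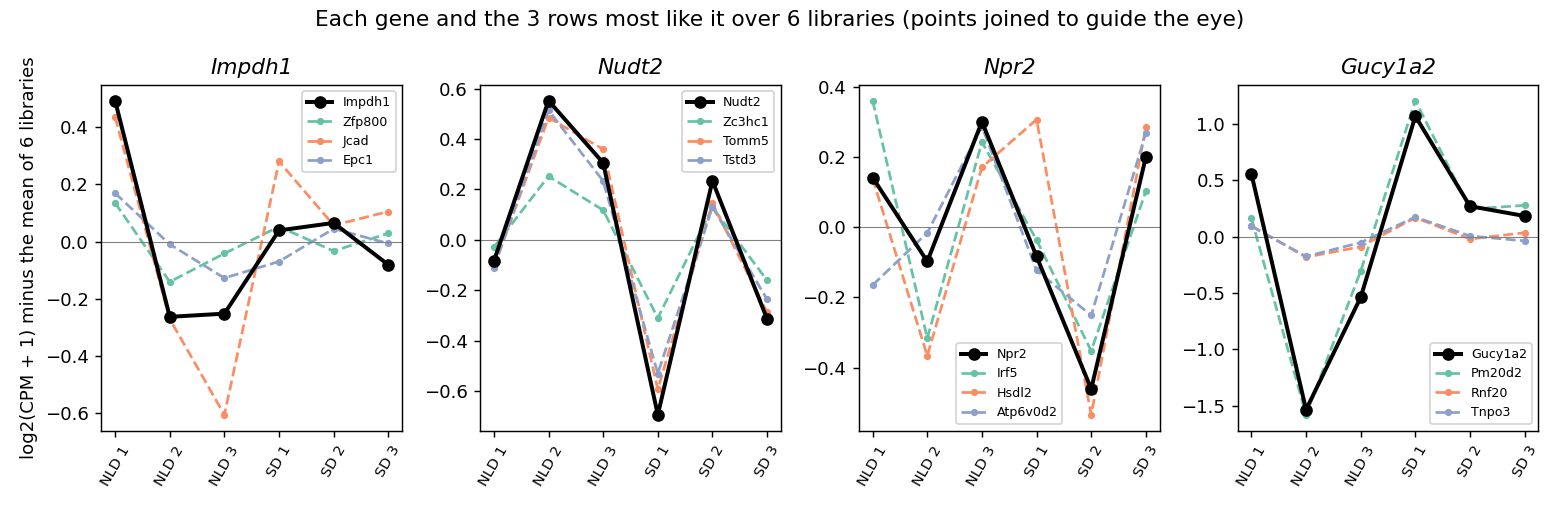
Log2(CPM + 1) minus the mean of the 6 libraries (y axis) in each library (x axis), for each of the 4 genes (black) and the 3 rows with the highest r (colours); lines only join the points of a row. The rows beside Nudt2 share its low in SD replicate 1 and its high in NLD replicate 2, and those beside Npr2 and Impdh1 follow them less closely, with r between 0.778 and 0.850.

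Around these genes, the other members of the branch to GMP could hardly be compared. Of 5 genes of that branch, Impdh1 was the only one with enough counts for the test. Impdh2, the other IMP dehydrogenase, was listed at 0 in the 6 libraries, as were the GMP reductases Gmpr and Gmpr2, and Gmps, which makes GMP, had counts of 17, 4 and 0 in NLD replicates 1 to 3 and 4, 5 and 4 in SD replicates 1 to 3. The promoter window of Impdh2 lies 122.8 kb from its GRCm38 place in GRCm39, that of Gmpr 153 kb and that of Gmps 92.6 kb away. The part of these shifts in the zeros was not tested. Of the 129 genes of purine metabolism, 47 were listed at 0 and 52 were tested. Of the 52, only the 4 genes chosen here had a position shared by the builds. Whether the other rows hold reads of the genes they name was not tested. None of these 52 was called by edgeR at an adjusted p under 0.05, 2 were higher and 2 lower at an unadjusted p under 0.05 (background 4.46% higher and 4.02% lower of all rows), and the groups were apart in 2 higher and 3 lower (background 9.08% and 7.93%). The median log2 fold change was 0.06 over the 52 and 0.03 over all rows tested. The smallest p of the list were those of Adcy5, Entpd8 and Ak5. Adcy5, an adenylate cyclase, had 18.4, 16.4 and 17.2 CPM in NLD replicates 1 to 3 and 37.8, 31.6 and 37.9 in SD replicates 1 to 3 (adjusted p = 0.142 from edgeR and 6.50e-04 from DESeq2). Its window had moved by 180 kb and that of Entpd8 by 110 kb.

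The diadenosine list around Nudt2 held the 2 other genes whose promoter letters had not moved, Aptx and Hint2, both on chromosome 4. By the annotation, Hint2 met the rule for the same position and Aptx did not. Aptx encodes aprataxin, a DNA repair enzyme of the histidine triad (HIT) family that removes AMP from broken ends, and Hint2 a mitochondrial HIT protein that is abundant in liver. Aptx had 181, 148 and 167 CPM in NLD replicates 1 to 3 and 84.7, 134 and 104 in SD replicates 1 to 3, and every SD library lay below every NLD library. Its log2 fold change was -0.62 (standard error 0.20, unadjusted p = 0.0178, adjusted p = 0.504 from edgeR). Hint2, whose start lies 22.6 kb from that of Npr2, had 975, 1418 and 1290 CPM in NLD replicates 1 to 3 and 810, 973 and 892 in SD replicates 1 to 3. Again every SD library lay below every NLD library, with a log2 fold change of -0.46 (standard error 0.17, unadjusted p = 0.0332, adjusted p = 0.578 from edgeR). Neither passed the adjusted threshold. Of the 29 genes of this list 8 were tested, 2 of them (Nudt2 and Hint2) at a position shared by the builds. None of the 8 was higher and only Aptx and Hint2 were lower at an unadjusted p under 0.05 from edgeR (background 4.46% higher and 4.02% lower of all rows). The same 2 were those with groups apart (background 7.93% lower). Of this list 15 genes were listed at 0, among them Fhit, a hydrolase of diadenosine polyphosphates. Kars, the lysyl tRNA synthetase that can form Ap4A, was listed at 0 too, and its window had moved by 727 kb. The median log2 fold change of the 8 was -0.22, against 0.03 over all rows tested.

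For cyclic GMP, of 47 genes from ligands to targets 14 were listed at 0 and 19 were tested. Only 2 of the tested rows, Npr2 and Gucy1a2, had a position shared by the builds. None of the 19 had an adjusted p under 0.05 from edgeR (background 0.289% of all rows) or an unadjusted one (background 8.48%), and none had an unadjusted p under 0.05 from DESeq2 with the same filter. None had groups apart (background 17.0%), and the median log2 fold change was 0.03, as over all rows tested. Of the ligands, Nppc, which encodes C-type natriuretic peptide, the ligand of Npr2, had counts of 6, 8 and 0 in NLD replicates 1 to 3 and 7, 0 and 4 in SD replicates 1 to 3. Among other subunits of soluble guanylate cyclase, the row of the beta subunit Gucy1b1 had counts of 53, 63 and 43 in NLD replicates 1 to 3. In SD replicates 1 to 3 that row had 46, 71 and 54. The row of the alpha subunit Gucy1a1 had 9, 31 and 18 in NLD replicates 1 to 3 and 36, 32 and 25 in SD replicates 1 to 3. The windows of Gucy1b1 and Gucy1a1 had moved by 92.7 kb, and whether these rows hold reads of those genes was not tested. The smallest p of the list were those of Gucy1b2, a further beta subunit (16.0 ± 4.37 and 10.6 ± 1.83 CPM, standard deviation, n = 3, adjusted p = 0.619 from edgeR), Gucy2e, a retinal membrane guanylate cyclase (adjusted p = 0.650), and Pde3b, a phosphodiesterase that cyclic GMP inhibits (adjusted p = 0.701). Prkg1, a kinase activated by cyclic GMP, had at most 4 counts in a library. The windows of Nppc, Gucy1b2, Gucy2e and Prkg1 had moved by 72.3, 237, 109 and 22.6 kb. Cngb3, a subunit of the cyclic GMP gated channel of cones, has a position shared by the builds and had 0 counts in every NLD library and 10, 8 and 4 under SD. It had too few counts for the test, and without the filter its unadjusted p was 0.0244 and its adjusted p 0.628 from edgeR. In that fit 814 of 16129 rows had an unadjusted p under 0.05.

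**Figure D5:**
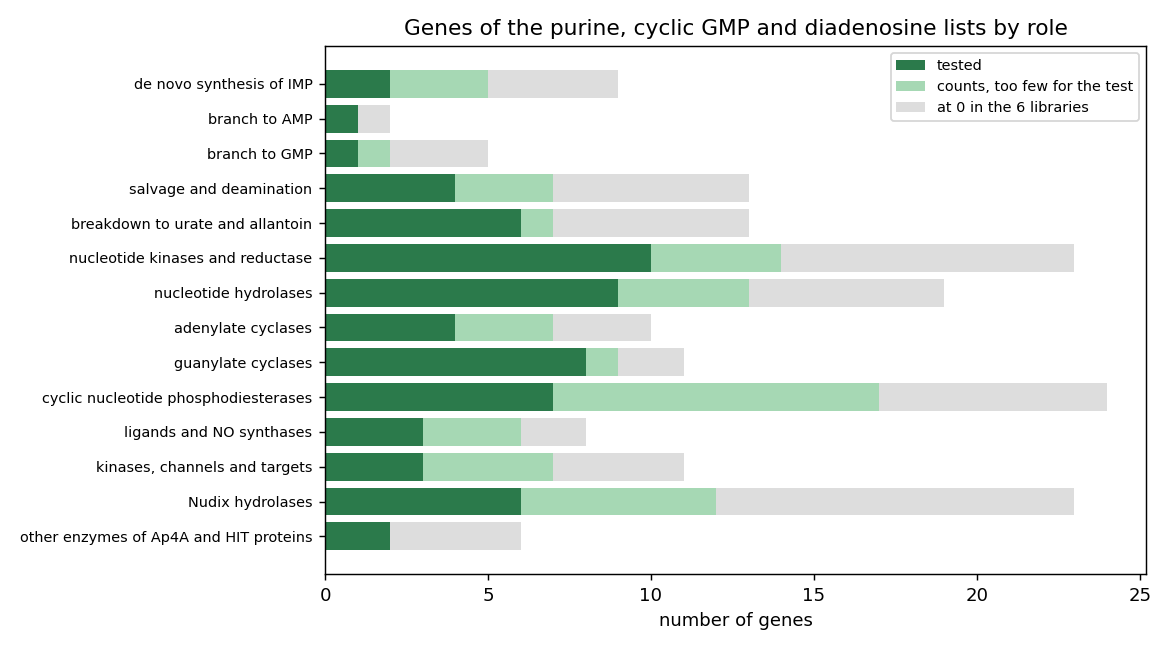
Number of genes (x axis) of the purine, cyclic GMP and diadenosine lists by role (y axis), split into genes tested, genes with counts too few for the test and genes listed at 0 in the 6 libraries. In the branch to GMP, 1 of 5 genes was tested, and of 9 genes of the synthesis of IMP 2 were tested and 4 listed at 0.

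Facts of the libraries bear on these values. A count of 4 was more frequent than a count of 1, 2, 3 or 5 in each of the 6 libraries, and low counts such as those of Gucy1a2 and Cngb3 cannot be read as numbers of reads. Of 18 hepatocyte markers 10 had counts. Pon1, whose position the builds share, had a mean of 16973 CPM in NLD mice and 14191 in SD mice, and Cyp7a1, likewise, 1723 and 5081, while Alb had 1.57 and 0.930 CPM and Ttr and Apoa1 were listed at 0. The summed markers, most of whose CPM came from Pon1, were 19133 to 23449 CPM under NLD and 19592 to 25194 under SD. Of the 8 tested, 2 (Cyp7a1 and Cps1) were higher and 0 lower at an unadjusted p under 0.05 from edgeR (background 4.46% higher and 4.02% lower of all rows). Of 14 markers of stellate cells and fibroblasts, cells that can express guanylate cyclases, 5 had counts, with a sum of 150 to 264 CPM under NLD and 158 to 339 under SD. Among the latter, Lrat, Des and Dcn were listed at 0. Col1a2, whose position is shared, made up most of that sum, with a mean of 176 CPM in NLD mice and 203 in SD mice. Of 12 endothelial markers 6 had counts, with sums that came mostly from Stab2 and overlapped between the groups. Counts were held by 1 of 12 markers of Kupffer cells and macrophages, 5 of 8 of cholangiocytes and 4 of 12 of blood cells. Of 5 smooth muscle markers 3 had counts, with sums of 1.34 to 51.4 CPM under NLD and 0 to 55.3 under SD. Acta2 and Smtn were listed at 0.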

How the data were processed

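Liver libraries came from 3 NLD and 3 SD mice, all of them ABX. The values are gene counts that the authors deposited as whole numbers without normalization. Alignment with HISAT2 to GRCm39 and assembly with StringTie stand in their methods, whereas GRCm38 and mm10 are the builds of the submitters' processing notes. How StringTie output became counts, and with which strand setting, is not given in the sources used here. The total was 5497797 to 6932965 counts per library.

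The quasi-likelihood test of edgeR 4.0.16 (R 4.3.3) was run on TMM-scaled counts after filterByExpr, two-sided and with robust glmQLFit, and p-values were adjusted over 7261 rows by Benjamini-Hochberg. A standard error is the log2 fold change divided by the root of F, and 95% intervals use its t distribution. The fit was tested on simulated data. The alternatives changed the factors (RLE, upper quartile), the filter (none, or 10 counts in all libraries), the tool (DESeq2 1.42.0), the robust estimation, the block (replicate number) or the data (without 1 library, without the 10 most abundant rows).

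Positions were taken from GRCm39 (GENCODE M39, by gene ID for 54749 rows) and GRCm38.p6 (RefSeq, by symbol). The same position means that a gene's start or end, whichever was nearer, differed by at most 2000 bp and the median over 11 adjacent protein-coding rows by at most 10 bp, as in 535 rows. Named were the 4 genes, list genes at the same position, up to 3 genes per list with the smallest p and 3 rows most like each gene. Other genes of the branch to GMP, ligands, partners and targets were named for their roles after their values were seen. The genes and lists were chosen with earlier results of these data known. No library repeated another of its group, since chi-square per row was 31.5 to 70.2.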

Additional observations from a re-analysis of the deposited data

How the results depend on the processing

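None of the 4 genes was called under any alternative. Nudt2 and Npr2 were lower and Gucy1a2 higher under SD in each alternative that could be fitted, and no value could be had for Gucy1a2 with at least 10 counts in every library. The log2 fold change of Impdh1 was above 0 with the replicate block (0.017) and in 2 of the fits that left out a library (-0.17 to 0.27). Without 1 library it was -0.79 to -0.29 for Nudt2, -0.39 to -0.069 for Npr2 and 0.62 to 2.67 for Gucy1a2. Over all rows, edgeR called 21 rows, 44 with no filter and 0 to 30 without 1 library (0 without SD replicate 1, 2 or 3, with 437, 681 and 397 at an unadjusted p under 0.05), and DESeq2 called 137, or 89 with no filter. Purine metabolism rows at an unadjusted p under 0.05 numbered 4 of 52 tested, against 616 of 7261 over all rows. From DESeq2 with no filter they were 2 of 82 (695 of 16129 over all rows). Without 1 library they numbered 1 to 6. They were 1 of 55 without NLD replicate 2 (472 of 7759 over all rows) and 2 of 52 without SD replicate 1 (437 of 7663). Without SD replicate 2 they were 6 of 54 (681 of 7731). Cyclic GMP rows numbered 0 of 19 tested. With no filter they were 1 of 33 in edgeR (814 of 16129 over all rows) and 1 of 33 in DESeq2 (695 of 16129). The cause of these differences was not tested.

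What the replicate number stands for is not given in the labels. Between libraries with the same number, the correlation of their deviations was 0.104, 0.0866 and 0.0353 for replicates 1, 2 and 3. Between libraries with different numbers it lay between -0.0870 and -0.0020. Deviations were taken from the mean of each group, so those of its libraries add up to 0 in each row. A positive value for a pair thus brings a negative one for another pair that holds the same library. Whether libraries with the same number belong together was not tested. With the replicate block, edgeR called 0 rows (766 at an unadjusted p under 0.05), and Nudt2 had a log2 fold change of -0.52 (unadjusted p = 0.0128, adjusted p = 0.410 from edgeR). Gucy1a2 had 0 to 30 counts in a library, so its values rest on few counts, which cannot be read as numbers of reads.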
